A study of Mus musculus with 11 samples.

Results

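The sodium pump genes and their small regulators in the hippocampus of CD and FD F1 mice are described here through 7 genes, namely Fxyd1, Fxyd2, Fxyd5, Fxyd6, Fxyd7, Atp1b1 and Atp1b3. They were taken by symbol from the 38293 genes in the count tables. The starting point was Fxyd2, which the study had picked by its difference between CD and FD mice in these same libraries, and the other 6 genes are its relatives or its partners in the pump. Values for the maternal diet are therefore given as a description for these 7 genes. The study also measured Fxyd2 by qPCR and reported it as lower in FD mice, and those measurements are not part of the counts used here. All 7 genes passed the filter of at least 10 counts over all mice.

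RNA of the whole hippocampus was sequenced from 11 wildtype F1 mice at 14 weeks of age, the offspring of 129S6/SvEv dams mated to C57BL/6J males. In the CD group (3 males and 3 females) the dams ate a control diet with 2.3 mg folic acid (FA) per kg. In the FD group (2 males and 3 females) they ate 40 mg FA per kg for 6 weeks before mating, and all dams received the control diet from mating onwards. The F1 mice themselves were thus never fed the supplemented diet, and which of them shared a litter is not given in the sources used here. In tissue RNA of this kind, a change in the number of cells of a type and a change in RNA per cell cannot be told apart.

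The sodium pump (Na+/K+-ATPase) moves sodium out of the cell and potassium into it, and in the brain it restores the ion gradients that action potentials and transmitter uptake run down. Each pump pairs a catalytic alpha subunit with a beta subunit, a glycoprotein that carries the complex to the membrane. Proteins of the FXYD family, named after a short conserved motif, sit beside the alpha subunit with a single membrane span and tune the affinity of the pump for its ions. Fxyd1 encodes phospholemman, Fxyd2 the gamma subunit known best from the kidney, Fxyd5 dysadherin, Fxyd6 phosphohippolin and Fxyd7 a regulator found mostly in the brain.

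The 5 Fxyd genes lie in 2 clusters of the mouse genome (GRCm38). Fxyd5 (chromosome 7, 31032722 to 31042481), Fxyd7 (31042513 to 31051467) and Fxyd1 (31051678 to 31057199) follow each other on the minus strand of chromosome 7, with 31 bases between the first pair and 210 bases between the second. Fxyd6 (chromosome 9, 45370185 to 45396159) and Fxyd2 (45399669 to 45410278) are neighbours on the plus strand of chromosome 9, 3509 bases apart. Atp1b3, the beta-3 subunit (96332655 to 96364442), is on the minus strand of the same chromosome. Atp1b1, the beta-1 subunit (164437109 to 164458355), is on the minus strand of chromosome 1.

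The coding sequence around the family motif is shown because it is the part by which the 5 Fxyd genes are recognised as relatives, and because it shows how far their reads can be told apart. Each window holds 60 coding bases of GENCODE M21, read 5′ to 3′ on the strand of the gene, and the 12 capitals are the codons of the motif itself (phenylalanine, any residue, tyrosine, aspartate).
Fxyd1: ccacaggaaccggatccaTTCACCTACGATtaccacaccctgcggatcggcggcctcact
Fxyd2: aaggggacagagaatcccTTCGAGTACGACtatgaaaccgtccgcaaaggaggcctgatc
Fxyd5: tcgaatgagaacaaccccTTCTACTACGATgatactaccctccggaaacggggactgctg
Fxyd6: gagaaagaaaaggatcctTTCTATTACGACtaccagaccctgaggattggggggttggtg
Fxyd7: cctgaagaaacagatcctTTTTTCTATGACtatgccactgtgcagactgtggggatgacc

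In all 5 genes the motif was found once, and its codons were split between 2 exons at the same place, with 10 capitals in the first exon and the last 2 in the next. The exons are 2 and 3 of the transcript used for Fxyd2 and Fxyd7, 3 and 4 for Fxyd1 and Fxyd6, and 7 and 8 for Fxyd5. With the intron, the windows cover chr7:31053443-31053920 for Fxyd1, chr9:45408117-45408331 for Fxyd2, chr7:31035252-31035413 for Fxyd5, chr9:45390645-45390808 for Fxyd6 and chr7:31044996-31047400 for Fxyd7. Between any pair of genes, 50% to 63.3% of the 60 bases were the same, and Fxyd2 shared most with Fxyd5 and Fxyd6 (58.3% each) and least with Fxyd7 (50%).

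Over whole transcripts, the longest stretch that any pair of the 7 genes had in common was 38 bases, between Fxyd2 and Fxyd5. A read of 50 bases therefore could not match transcripts of both without a mismatch. In a search of the annotated transcripts, matches of 50 or more bases in other genes were found for the beta subunits alone. Atp1b3 has a processed pseudogene on chromosome X, Gm1848, with 96.4% identity over 805 bases and 20 to 90 counts per mouse, and reads that matched both were not counted for either, so its counts are uncertain. How many of its reads were lost in this way was not measured. A second copy, Gm6680 on chromosome 3 (86.5% over 635 bases), was not analysed here. Of the exon bases of Atp1b1, 18.7% lie opposite exons of Nme7 on the other strand, and whether the counting used strand is not stated. Fxyd5 shares 1.43% of its exon bases with the microRNA gene Mir7050.

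The count tables held between 11737554 and 44447006 reads on genes per mouse, at which 3 counts correspond to 0.0675 to 0.256 CPM (counts scaled to the size of the library). The share of reads that fell in no annotated gene varied from 7.01% (CD female 1) to 11% (CD male 2) of all reads in the table. It had a median of 8.75% in females and 10.4% in males, and of 9.24% in CD and 10.4% in FD mice. This share is set beside the results below. Levels are given as CPM after TMM scaling, a correction for library composition, and log2 fold changes, with their standard errors (SE), come from edgeR's quasi-likelihood test over 20589 genes. A gene was called when its adjusted p was under 0.1.

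**Figure D1:**
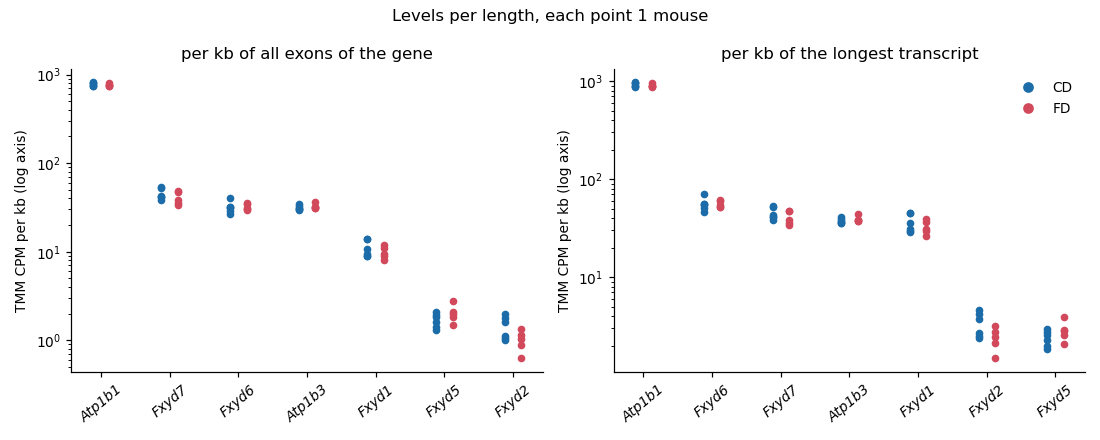
Level of the 7 genes in CPM per kb (log axis), with each point 1 mouse, CD in blue and FD in red. The left panel divides by all exons of the gene and the right panel by its longest transcript. Atp1b1 stands far above the rest in both, Fxyd2 and Fxyd5 lie at the bottom, and Fxyd6, Fxyd7, Fxyd2 and Fxyd5 change rank with the length used.

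Atp1b1 was by far the most abundant of the 7 genes, and Fxyd2 and Fxyd5 were the least abundant. Per kb of exon, Atp1b1 had a median level of 754 CPM, against 41.4 for Fxyd7, 31.4 for Fxyd6 and 31.6 for Atp1b3. Fxyd1 followed with 9.47 CPM per kb, Fxyd5 with 1.85 and Fxyd2 with 1.13. Fxyd7 lay above Fxyd6 in all 11 mice although their ranges overlapped, whereas Fxyd6 exceeded Atp1b3 in only 6 of 11. Fxyd5 exceeded Fxyd2 in 9 of 11 mice, with overlapping ranges. The other steps in this order had no overlap between mice.

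Which length was used decided several ranks. In Fxyd1, Fxyd2, Fxyd5 and Fxyd6 the exons of the gene taken as a whole are longer than any one transcript. Per kb of the longest transcript Fxyd6 (54.6 CPM per kb) came before Fxyd7 (41.4), and Fxyd2 (2.68) was no longer distinguishable from Fxyd5 (2.59), exceeding it in 6 of 11 mice. Within the Fxyd family, Fxyd7 and Fxyd6 together made up most of the signal per exon length, with medians over the mice of 48.6% and 36.7%. Fxyd1 contributed 11.5%, Fxyd5 2.17% and Fxyd2 1.3%. Per length of the longest transcript the medians were 41.1% for Fxyd6, 31.3% for Fxyd7, 24.3% for Fxyd1, 1.99% for Fxyd2 and 1.97% for Fxyd5. Fxyd3 and Fxyd4, the 2 family members that were measured but not included in the 7, were at the low end of detection. Their median shares were 0.142% and 0.0528% per exon length, and 0.153% and 0.0558% per length of the longest transcript.

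Among the beta subunits, Atp1b1 held a median of 85.5% of the level per exon length, Atp1b2 10.8% and Atp1b3 3.56%. These shares varied little, between 84.2% and 86.7% for Atp1b1 and between 3.26% and 4.18% for Atp1b3. Atp1b4, placed with the beta subunits here by its name, had 0 counts in all 11 libraries.

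The first comparison asked how Fxyd2 and its relatives stood in FD against CD mice. Fxyd2 had the largest difference of the 7, with lower values in FD mice, and Fxyd5 had the largest in the other direction. Neither passed the threshold. In CD mice, Fxyd2 ranged from 4.08 to 7.88 CPM with a median of 5.47 (5.72 ± 1.65, SD, n = 6). The FD values were 4.65, 3.58 and 5.42 CPM in females 1 to 3 and 4.14 and 2.55 CPM in males 1 and 2 (4.07 ± 1.09, SD, n = 5). The groups overlapped, but the highest FD value lay below all 3 CD females, which had 7.88, 6.4 and 7.19 CPM. The females of the groups were apart in 6.81% of all genes tested. The CD males, with 4.23, 4.08 and 4.54 CPM, lay among the FD mice. These levels rest on 36 to 251 counts per mouse. Without overlap between all CD and all FD mice were 0 of the 7 genes and 0.505% of all genes tested.

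**Figure D2:**
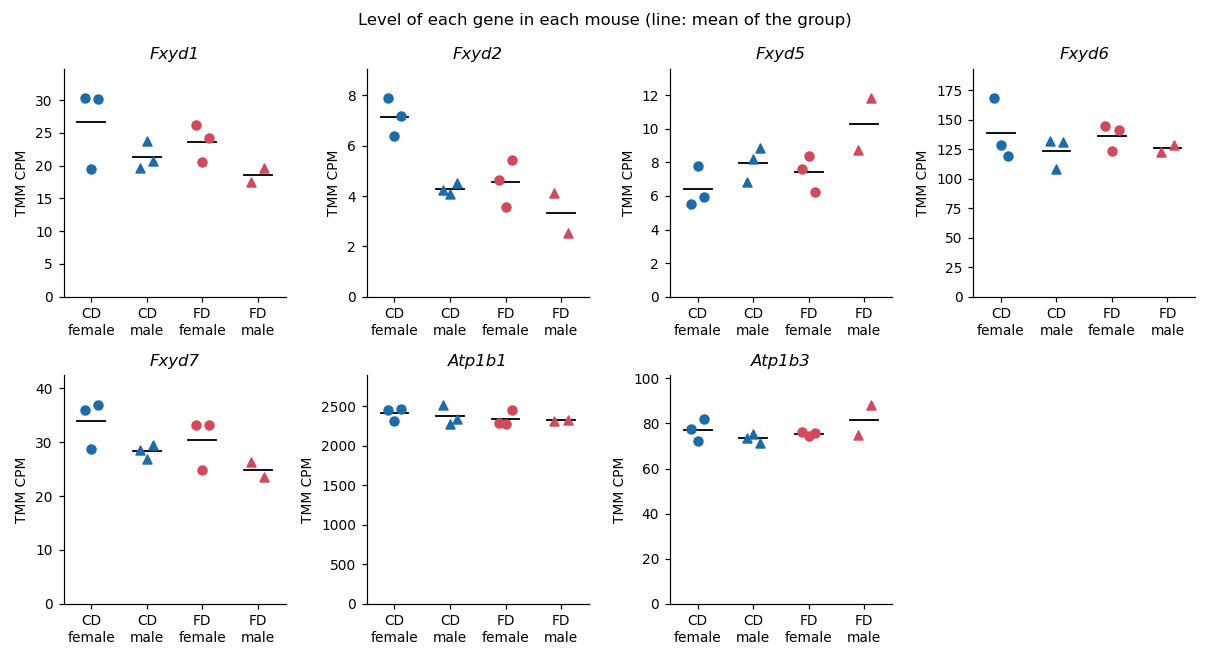
Level of each of the 7 genes in TMM CPM in every mouse, split by diet (CD blue, FD red) and sex (circles female, triangles male), with a line at the mean of each set. For Fxyd2 the 3 CD females (6.4 to 7.88 CPM) stand above every other mouse, Fxyd5 is highest in FD male 2 (11.8 CPM), and Atp1b1 is nearly level across all sets.

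The log2 fold change of Fxyd2 (FD minus CD) was -0.44 (SE 0.2, unadjusted p = 0.0435, adjusted p = 1, edgeR). Of the 7 genes, 0 passed the threshold in edgeR and 0 in DESeq2, against 0.068% of all genes tested (14 of 20589), and nothing is read from this count because Fxyd2 had been chosen in this contrast. Of the 7, 1 gene (Fxyd2) had an unadjusted p under 0.05 in edgeR and in DESeq2. With at least 10 counts required in every mouse, 0 had, and Fxyd2 was at an unadjusted p of 0.0559 and an adjusted p = 1 in edgeR. With single mice left out, the log2 fold change of Fxyd2 lay between -0.56 and -0.29. Its unadjusted p was 0.068 to 0.139 (edgeR) without CD female 1, 2 or 3, FD female 2, or FD male 1 or 2. DESeq2 with a prior on fold changes, which shrinks them towards 0, gave -0.1 for Fxyd2. Adding the share of reads in no gene as a covariate, chosen after seeing the data, gave -0.34 for Fxyd2 (SE 0.141, unadjusted p = 0.0274, edgeR). The fold changes with diet were then 0.15 for Fxyd5, -0.09 for Fxyd1, -0.08 for Fxyd7 and 0.07 for Fxyd6, and 0 of the 7 genes passed the threshold. With the replicate block, which pairs a CD and an FD mouse of the same sex and number, the fold change of Fxyd2 was -0.53 (adjusted p = 0.148, edgeR), and 23 genes in all passed the threshold instead of 14. In this fit 4 of the 7 genes had an unadjusted p under 0.05, namely Fxyd2 (0.000321), Fxyd5 (0.00293), Fxyd1 (0.0108) and Fxyd7 (0.0148), with adjusted p-values from 0.148 to 0.616 (edgeR). With sex as covariate 2 had, namely Fxyd2 (log2 fold change -0.52, unadjusted p = 0.000946, adjusted p = 0.464, edgeR) and Fxyd5 (unadjusted p = 0.0243, edgeR). In males alone 2 had, namely Fxyd5 (0.0303) and Atp1b3 (0.0431), while Fxyd2 was at 0.134 (unadjusted p, edgeR). In females alone 1 had, Fxyd2 (unadjusted p = 0.00205, edgeR). In these 3 fits 0 of the 7 genes passed the threshold. Over all genes tested, unadjusted p-values under 0.05 (edgeR) were found for 534 of 20589 in the main fit and 1367 of 20212 with the block. They were found for 942 of 20589 with sex as covariate, 756 of 19232 in males alone and 440 of 19239 in females alone. Nothing is read from the counts among the 7, since Fxyd2 was chosen in this contrast. Beside the Fxyd2 values, 0 of the 9 pyramidal cell markers had a positive log2 fold change with diet (median -0.07, with 0 past the threshold), and their summed level was 980 to 1131 CPM in CD and 931 to 1075 CPM in FD mice. The part of these cells in the Fxyd2 values was not tested.

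Fxyd5, which is known for loosening cell contacts, ranged from 5.53 to 8.83 CPM in CD mice with a median of 7.3. Its FD values were 7.61, 8.38 and 6.21 CPM in females 1 to 3 and 8.76 and 11.8 CPM in males 1 and 2. The FD males ranked 1 and 3 among all mice, and the FD females lay within the CD range. Its log2 fold change was 0.23 (SE 0.152, adjusted p = 1, edgeR). FD male 2 also had the highest summed level of the 13 meningeal fibroblast markers, 455 CPM, where the CD mice ranged from 110 to 268 CPM and all FD mice from 142 to 455 CPM. All 13 of these markers had a positive log2 fold change with diet (median 0.36), and 0 of them passed the threshold. Without FD male 2, the fold change of Fxyd5 was 0.1, and the part of the meningeal markers in it was not tested.

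Fxyd1 and Fxyd7, the neighbours of Fxyd5 on chromosome 7, were measured at slightly lower levels in FD mice. Fxyd1 lay at 19.5 to 30.3 CPM in CD mice (median 22.2). In FD mice it lay at 26.2, 20.6 and 24.3 CPM in females and 17.5 and 19.6 CPM in males. Its log2 fold change was -0.14 (SE 0.132), and it lay between -0.22 and -0.06 when single mice were left out. For Fxyd7 the CD range was 26.8 to 36.9 CPM (median 29.1) and the FD values were 33.2, 24.8, 33.2, 26.4 and 23.5 CPM (females 1 to 3, then males 1 and 2), with a log2 fold change of -0.13 (SE 0.106) and a range of -0.19 to -0.07 when single mice were left out. For both genes the FD males were below the CD males, as sets of 2 and 3 mice that were apart in 19.1% of all genes tested, and the females overlapped.

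Fxyd6 and the beta subunits differed least. Fxyd6 had 108 to 168 CPM in CD and 122 to 144 CPM in FD mice, with a log2 fold change of 0.01 (SE 0.0874). Atp1b1 had 2277 to 2516 CPM in CD and 2273 to 2457 CPM in FD mice, with a log2 fold change of -0.04 (SE 0.0446). Atp1b3 had 71.2 to 82 CPM in CD and 74.2 to 88.1 CPM in FD mice, with a log2 fold change of 0.05 (SE 0.0558). Over the 7 genes the median log2 fold change with diet was -0.04, against -0.004 over all genes tested.

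**Figure D3:**
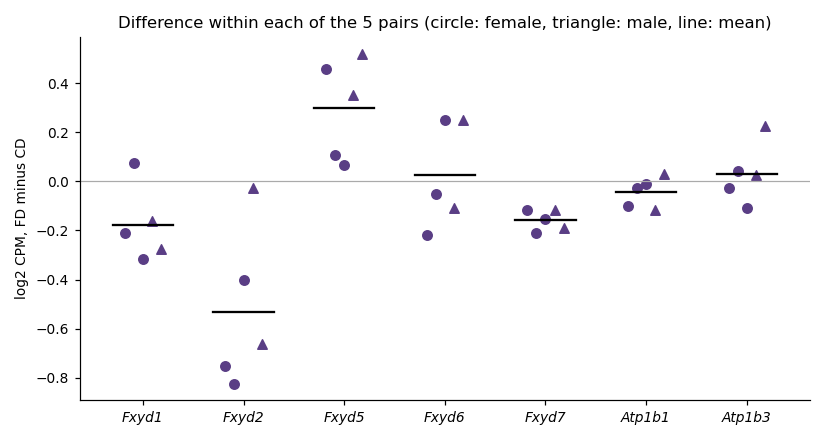
Difference in log2 CPM (FD minus CD) within each of the 5 same-sex, same-number pairs, for the 7 genes, with a line at the mean. The 5 points of Fxyd2 and of Fxyd7 lie below 0 and those of Fxyd5 above it, and the Fxyd2 points spread from -0.82 to -0.03.

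Taken within the 5 pairs, Fxyd2 differed by a mean log2 of -0.53, with values from -0.82 (female 2) to -0.03 (male 1), so that 1 pair showed almost no difference. Fxyd7 was also lower in the FD mouse of all 5 pairs, over the narrow range of -0.21 to -0.12. Fxyd5 was higher in the FD mouse of all 5, from 0.07 to 0.52. The pairs of Fxyd6 ranged from -0.22 to 0.25 and those of Atp1b3 from -0.11 to 0.22. The pairs were looked at with these values known, and the fit with the block called 0 of the 7 genes. Whether mice of the same number belong together is not stated in the labels.

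The second comparison, males against females with diet as covariate, was not used to choose the genes, although the value of Fxyd2 in it was already known. In males 3 of the 7 genes were lower (Fxyd2, Fxyd1 and Fxyd7) and 1 was higher (Fxyd5), while the most abundant Fxyd gene by reads, Fxyd6, and both beta subunits did not pass the threshold. That is 4 of 7 genes, against 6.11% of all genes tested (1257 of 20589). The fit treats all 11 mice as independent, and its p-values do not take account of any correlation within the same-number pairs, each of which is of 1 sex. Fxyd2 had 3.58 to 7.88 CPM in females (median 5.91) and 4.23, 4.08, 4.54, 4.14 and 2.55 CPM in males (CD 1 to 3, then FD 1 and 2). The sexes overlapped through FD female 2, and among the CD mice alone they did not overlap, which held for 15.8% of all genes tested. The log2 fold change of Fxyd2 (male minus female) was -0.63 (SE 0.13, adjusted p = 0.057, edgeR).

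Fxyd1 had 19.5 to 30.3 CPM in females (median 25.2) and 19.6, 23.7, 20.7, 17.5 and 19.6 CPM in males, in the same order. Its log2 fold change was -0.36 (SE 0.0984, adjusted p = 0.0768, edgeR). CD female 2 and FD female 2 lay among the males, while the other 4 females lay above all males. Fxyd7 showed this division again, with 24.8 to 36.9 CPM in females (median 33.2) and 28.6, 26.8, 29.6, 26.4 and 23.5 CPM in males. Its log2 fold change was -0.28 (SE 0.0803, adjusted p = 0.084, edgeR).

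Fxyd5 went the other way, with 5.53 to 8.38 CPM in females (median 6.91) and 6.84, 8.21, 8.83, 8.76 and 11.8 CPM in males. Its log2 fold change was 0.41 (SE 0.116, adjusted p = 0.0825, edgeR), and the sexes did not overlap among the FD mice alone, where 22.4% of all genes tested were apart. As whole sets of 6 females and 5 males, the sexes overlapped in all 7 genes, and they were apart in 1.78% of all genes tested. Fxyd6 had a log2 fold change of -0.15 (SE 0.0789, adjusted p = 0.306), Atp1b1 one of -0.02 (SE 0.0427) and Atp1b3 one of 0.003 (SE 0.0559). The median of the 7 genes was -0.15, against -0.0045 over all genes tested.

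**Figure D4:**
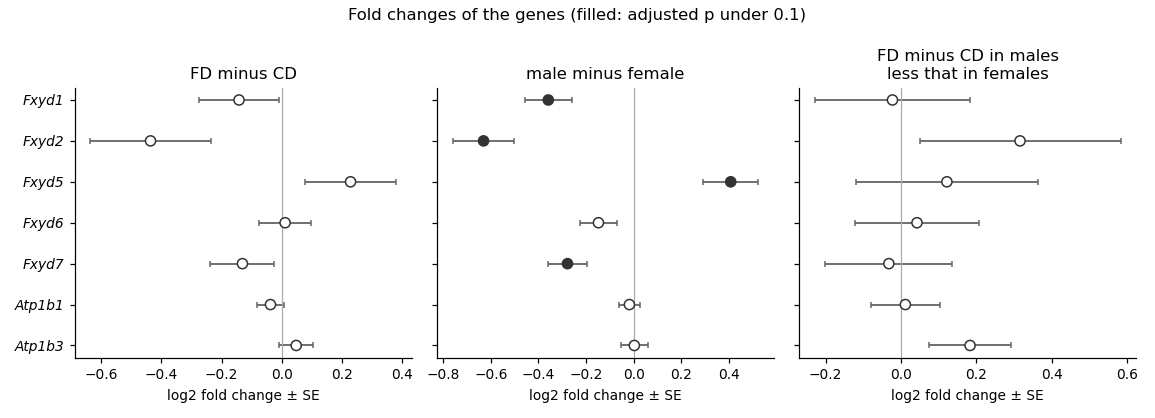
Log2 fold change with its standard error for the 7 genes in 3 contrasts, FD minus CD, male minus female, and the difference of the diet effect between the sexes. Filled points had an adjusted p under 0.1 in edgeR. Only the middle panel has filled points (Fxyd1, Fxyd2, Fxyd5 and Fxyd7).

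The sex calls depended on single mice and on whether the share of reads in no gene was a covariate. In the 11 fits that each lacked 1 mouse, 0 to 4 of the 7 genes and 18 to 3244 of all genes were called. All 4 calls were kept only without CD female 2 or without FD female 2, while without FD male 1 there were 2 calls, and 1 each without CD male 3 or without FD female 1. There were 0 calls among the 7 genes without CD female 1, CD female 3, CD male 1, CD male 2, FD female 3 or FD male 2. The direction of the 4 genes held in each of these fits, with a range from -0.78 to -0.56 for Fxyd2 and from 0.33 to 0.48 for Fxyd5. With the share of reads in no gene as a further covariate, chosen after seeing the data, 9 genes in all and 0 of the 7 passed the threshold. The fold changes were then -0.43 for Fxyd2, -0.24 for Fxyd1, -0.11 for Fxyd7 and 0.19 for Fxyd5.

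**Figure D5:**
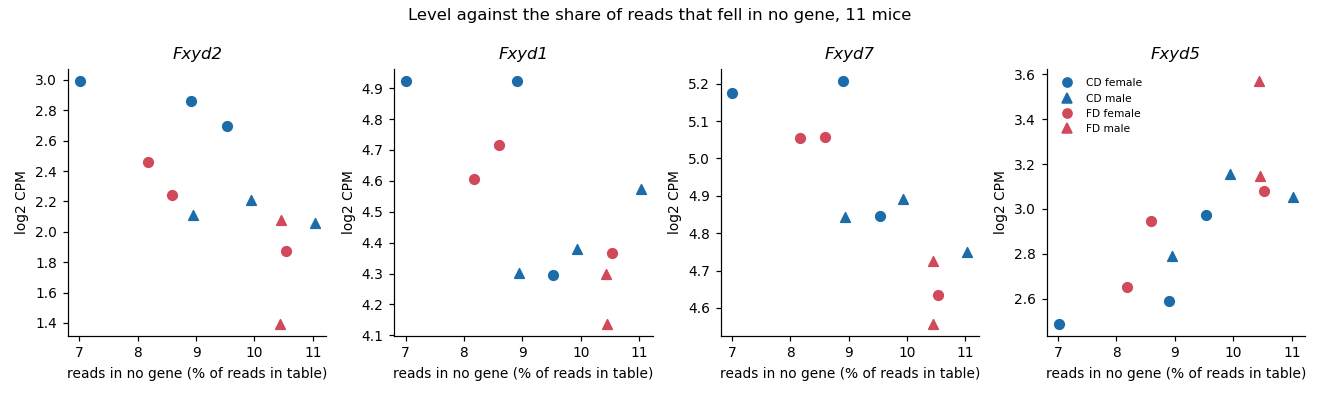
Level in log2 CPM of the 4 genes with a sex call against the share of reads that fell in no gene, for 11 mice (CD blue, FD red, circles female, triangles male). Fxyd2, Fxyd1 and Fxyd7 decline from left to right and Fxyd5 rises, and the 5 mice with the highest Fxyd7 include 4 females with a share below 9%.

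Of the 7 genes, 6 followed this share over the 11 mice at an adjusted p under 0.1. How many of all genes tested did so was not counted, so this is not read as particular to the 7. For Fxyd6, r was -0.86 (Spearman's rho -0.76, permutation p = 0.00074, adjusted p = 0.0124 over 84 relations), and it was -0.61 without the 2 mice farthest from the median. For Fxyd7, r was -0.84 (rho -0.82, permutation p = 0.00122, adjusted p = 0.0146), and -0.84 without those 2 mice. For Fxyd5 it was 0.8 (rho 0.78, permutation p = 0.00309, adjusted p = 0.0324), and 0.8 without them. For Fxyd2 it was -0.72 (rho -0.82, permutation p = 0.0121, adjusted p = 0.0689), and -0.62 without them. Within the 6 CD mice the values were -0.89, -0.77, 0.86 and -0.74 in the same order. Fxyd1 (r = -0.67, rho -0.62, permutation p = 0.0266, adjusted p = 0.0931, -0.68 without them) and Atp1b1 (r = -0.69, rho -0.62, permutation p = 0.0197, adjusted p = 0.0859, -0.62 without them) passed by r and not by rho (adjusted p = 0.144 each). Atp1b3 passed by neither (r = -0.03, permutation p = 0.924). The share moves with sex in these mice, and its part in the sex calls was not tested beyond the fit with the covariate.

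The third comparison asked whether the effect of maternal diet differed between the sexes. No gene passed the threshold (0 of 20589, which is 0% of genes tested, with 391 at an unadjusted p under 0.05, and 0 in DESeq2), and 0 of the 7 genes had an unadjusted p under 0.05. For Fxyd2 the diet difference was -0.64 in females alone (SE 0.162) and -0.31 in males alone (SE 0.196). The difference between these was 0.32 on the log2 scale (SE 0.266, adjusted p = 1, edgeR), and it turned to -0.12 without FD male 1. With 2 FD males the design gives little precision for this comparison.

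Of the other beta subunit and Fxyd genes, Atp1b2, Fxyd3 and Fxyd4 could be tested, and 0 of these passed the threshold with diet, sex or their interaction. Atp1b2, the beta subunit of astrocytes, had a log2 fold change of 0.03 with diet and -0.12 with sex (adjusted p = 0.143, edgeR). Of 10 partners and related pumps, 9 were tested, 0 passed with diet and 1 was lower in males, against 0.068% and 6.11% of all genes tested. This was Nkain4, a membrane protein of a family that binds the beta-1 subunit, with a log2 fold change of -0.22 (SE 0.0643, adjusted p = 0.0883, edgeR). The most abundant of this list, Agrn (255 CPM) and Mlc1 (195 CPM), had log2 fold changes of 0.08 and -0.13 with sex, short of the threshold.

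Of 12 transporters and channels that use or share the ion gradients made by the pump, 0 passed with diet and 2 were higher in males, against the same shares of all genes. With the share of reads in no gene as covariate, 9 genes in all remained past the threshold with sex. How the list genes called with sex stood in that fit is not given here. The 2 genes were the glutamate transporter Slc1a2 (log2 fold change 0.16, SE 0.048, adjusted p = 0.0899, edgeR), the most abundant of the list at 2925 CPM, and the sodium-calcium exchanger Slc8a1 (0.48, SE 0.153, adjusted p = 0.099, edgeR). Slc1a3, next in abundance at 735 CPM, had a log2 fold change of 0.01. The median of the list was 0.02 with diet and 0.007 with sex. None of these genes was called in the interaction.

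Markers of cells that a hippocampal dissection can hold were set beside the 7 genes. Each of the 11 lists was reduced to the genes found by symbol with at least 10 counts over all mice. This left 9 of 10 pyramidal cell markers and all genes of the other lists. Summed over 11 genes, the interneuron markers ranged from 1193 to 1335 CPM in females and from 1173 to 1246 CPM in males. The 10 microglia markers ranged from 366 to 412 CPM in females and from 342 to 389 CPM in males. The 10 oligodendrocyte markers reached 4189 to 6603 CPM in females and 4094 to 5121 CPM in males. Single markers also passed the threshold between the sexes, against the 6.11% of all genes. They were 4 of 11 for interneurons (3 lower and 1 higher in males) and 3 of 10 for microglia (3 lower). For oligodendrocytes they were 2 of 10 (2 lower), for astrocytes 2 of 10 (1 lower, 1 higher) and for meningeal fibroblasts 1 of 13 (higher). The log2 fold change was positive in 5 of 11 interneuron, 1 of 10 microglia and 0 of 10 oligodendrocyte markers. It was positive in 4 of 10 astrocyte and 11 of 13 meningeal markers. No marker of the other 6 lists was called between the sexes, and none of any list with diet. The part of these cells in the results was not tested. Choroid plexus markers ranged from 41.4 to 101 CPM in CD and from 36.3 to 52.6 CPM in FD mice, with CD female 3 the highest.

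The 7 genes were related to the score of each list and to the share of reads in no gene, 84 relations in all, of which 24 had an adjusted p under 0.1. Other genes were not related to these scores, so no share over all genes stands beside this count. The closest of the 84 was that of Fxyd7 with the pyramidal cell markers, with r = 0.93 (rho 0.91, permutation p = 1e-05, the smallest that the permutations can give, adjusted p = 0.00084). It was 0.88 without the 2 mice farthest from the median and 0.91 after removal of diet and sex means. Fxyd2 and Fxyd5 were related to the same score in opposite directions, with r = 0.89 (rho 0.84, permutation p = 0.00045, adjusted p = 0.00945) and -0.89 (rho -0.69, permutation p = 0.00025, adjusted p = 0.00945, but 0.113 by rho). Without the 2 farthest mice these were 0.77 and -0.77. Fxyd7 also followed the interneuron score (r = 0.89, rho 0.84, permutation p = 4e-04, adjusted p = 0.00945, 0.91 without the 2 farthest mice). Fxyd1 followed the microglia score (r = 0.85, rho 0.76, permutation p = 0.00105, adjusted p = 0.0146, 0.81 without them). Fxyd1 also passed by r and not by rho with the oligodendrocyte (r = 0.78), choroid plexus (0.75), pyramidal cell (0.69) and interneuron scores (0.68). Their adjusted permutation p-values were 0.0376 to 0.0904. After removal of diet and sex means, r of Fxyd1 was 0.85 with choroid plexus and 0.72 with microglia. Fxyd5 and the meningeal score gave r = 0.57 (rho 0.42, permutation p = 0.0664, adjusted p = 0.169), which fell to 0.04 without the 2 farthest mice, so that this relation rests on those mice. After removal of diet and sex means, 13 relations had an adjusted p under 0.1. Fxyd7, Fxyd2, Fxyd5 and Fxyd1 also followed the share of reads in no gene (r = -0.84, -0.72, 0.8 and -0.67). The scores of the lists were not set against that share. Whether the relations with the scores are separate from it was therefore not tested.

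Among themselves, Fxyd2 and Fxyd7 varied together over the 11 mice (r = 0.87, and 0.73 after removal of diet and sex means), as did Fxyd1 and Fxyd7 (0.83 and 0.68). Fxyd5 ran against Fxyd2 (-0.87 and -0.66) and against its neighbour Fxyd7 (-0.87 and -0.71). The neighbours Fxyd2 and Fxyd6 were only loosely related (0.41 and 0.34), and so were both beta subunits (0.12 and 0.26). These values are a description over 11 mice and carry no test.

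The genes whose levels over the 11 mice were most like those of Fxyd2, after removal of diet and sex means and among the 14437 genes whose mean reached 1 CPM, were Sf3b2, Dmap1, Arfip2 and Ipo13 (r = 0.95 each), followed by Tesc, Mlycd, Gpd1, Gm8399, Strn4 and Wsb2 (0.93 to 0.95). Sf3b2 encodes a splicing factor, Ipo13 an importin and Gpd1 a glycerol phosphate dehydrogenase, and no other Fxyd or pump gene was among the 10. Fxyd7 was followed most closely by Cend1 (r = 0.996), a neuronal differentiation gene, and then by Kctd13 and Paqr4 (0.975 each). Fxyd5 was followed by Ptpn14 (0.95), a phosphatase gene that the study had also picked, and by Thbd and Mtmr11 (0.94 each). Fxyd1 was followed by Mvp and by the sodium-calcium exchanger Slc8a3 (0.97 each) and Tubb4b-ps1 (0.96), and Fxyd6 by Dnajb1 (0.98), Rxra and Rwdd4a (0.955 and 0.949). Atp1b1 was followed by Scamp1 (0.99), a protein of secretory vesicles, and by Ppp2cb and Cfap36 (0.95 each), and Atp1b3 by Pex2 (0.95), Lxn and Lpar1 (0.94 and 0.93). Such values are high because they were taken as the maximum over many genes, and they are given without a test.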

How the data were processed

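The authors sequenced hippocampal RNA as 50 bp single-end reads, trimmed them, aligned them with STAR 2.4.0 to mm10 (GRCm38) and deposited raw counts per gene for each of 11 mice, without normalization. The study names featureCounts, the summary lines resemble those of HTSeq, and the annotation release is not given in the sources used here. The 5 summary lines were left out of tests and library sizes (reads in no gene 7.01% to 11%, reads with several alignments 13.7% to 16%). Symbols, positions and sequences came from GENCODE M21, which names 94.9% of the genes.

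The 7 genes and all lists were chosen with earlier results of these data known. Counts were analysed with edgeR 4.0.16 in R 4.3.3 (TMM, at least 10 counts in total, quasi-likelihood test, Benjamini-Hochberg, threshold 0.1), with diet alone, sex with diet as covariate, and diet by sex as the 3 contrasts. log2 CPM used a prior count of 2. The scripts were tested on simulated data. Alternatives were DESeq2 1.42.0, RLE size factors, other count filters, covariates, subsets of mice, the replicate block, and each mouse left out in turn. The labels do not state that mice of the same number are pairs. Mice with the same sex and number deviated together from the means of their diet groups (r from 0.307 to 0.54 over 5 pairs), and the numbers were taken as pairs. Sex was not removed from these deviations, and mice of the same sex and different number were not compared. The r values therefore cannot tell a pairing by number from a shared sex. CD male 3 has no partner, and the block used 10 mice. Relations between mice used 100000 permutations (two-sided). Named genes are the 7, all list genes past the threshold and the most abundant examples, the 10 genes most like Fxyd2 and the 3 most like each other gene. Mice of one group are separate animals, but litters are not given, so p-values may understate the spread between litters. Motifs and shared stretches were searched with Python 3.11.15 and blastn 2.17.0. Some genes of the fixed lists are not reported here.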

Additional observations from a re-analysis of the deposited data

Results flagged for a closer look

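Among the 7 genes and the 11 marker lists, 36 groups of values (CD and FD separately) were examined for a mouse far from the rest, and chance alone marks about 1 in 20 such groups. In the FD mice, Atp1b3 stood at 88.1 CPM in male 2, where the other 4 lay between 74.2 and 76.3 CPM. Atp1b1 stood at 2457 CPM in FD female 3, where the other 4 lay between 2273 and 2324 CPM.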

How the results depend on the processing

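With diet, 0 of the 7 genes passed the threshold under all 21 alternatives, and the genes called moved from 14 to 1 with at least 10 counts in every mouse, 1 in females alone, 2 in males alone, 22 with the share of reads in no gene as covariate, 23 with the replicate block and 3 to 12 with a mouse left out. With sex, 4 of the 7 genes were called under DESeq2, RLE size factors and the stricter filter, and 5 without a filter, where Fxyd6 joined. The count was 0 in CD mice alone, in FD mice alone and with the share of reads in no gene as covariate, and 0 to 4 with a mouse left out. All genes called with sex went from 1257 to 5 in CD mice alone, 5 in FD mice alone, 9 with that covariate, 2043 with DESeq2, 2645 without a filter and 18 to 3244 with a mouse left out. In the interaction, 10 genes were called without a filter and 0 to 1 with a mouse left out, and 0 of the 7 throughout. The relations past the threshold went from 24 to 13 after removal of diet and sex means. The causes were not tested, except that subsets hold fewer mice.

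Signs turned only where values were close to 0 or imprecise. With diet, Fxyd6 was -0.0197 in females alone, -0.0046 with sex as covariate and -0.0304 to 0.0964 with a mouse left out, and Atp1b3 was -0.0327 in females alone. With sex, the share covariate gave 0.0597 for Fxyd6 and 0.0378 for Atp1b1. Atp1b3 was -0.0736 in CD mice alone and -0.0001 without a filter. With a mouse left out, Atp1b1 ranged from -0.0388 to 0.0067 and Atp1b3 from -0.0527 to 0.0346. In the interaction, leaving out a mouse gave -0.1298 to 0.1372 for Fxyd1, -0.1153 to 0.5919 for Fxyd2, -0.0907 to 0.3346 for Fxyd5, -0.1264 to 0.1405 for Fxyd6, -0.1275 to 0.0615 for Fxyd7 and -0.0062 to 0.0553 for Atp1b1. The replicate block, fitted for diet, called 0 of the 7 genes as the fit without it did. It cannot be fitted for sex, since each pair is of 1 sex, and was not run for the interaction. Fxyd2 rests on 36 to 251 counts per mouse, and Fxyd3 and Fxyd4 on too few for a direction.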
